A study of Homo sapiens with 2 samples.

Results

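The CHPT1 locus on chromosome 12 was examined for binding of oestrogen receptor α (ERα) in T47D cells, an established ERα-positive human breast cancer line. Members were the peaks with a centre between 101900000 and 102300000 on chromosome 12 (hg19), a window of 400 kb chosen by position around the start of CHPT1 near 102091400 on the plus strand. There were 3 such peaks among the 12688 in the list. The list compares 1 ERα ChIP library, made with the H-20 antibody from cells kept for 48 h without steroids and then given 10 nM 17β-estradiol for 45 min, with 1 input library. The input was DNA from estradiol-treated T47D cells with no antibody step. No library without estradiol and no RNA measurement was analysed here, so the values describe listed occupancy and not a response of CHPT1 to the hormone. Since the ChIP and the input were each a single library, no value has a replicate error, samples could not be tested against each other, and the file does not give the read depth.

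CHPT1 encodes choline phosphotransferase, a membrane enzyme that joins the choline head group of CDP-choline to diacylglycerol. This is the last step of the CDP-choline (Kennedy) pathway, which makes phosphatidylcholine, a main phospholipid of cell membranes. ERα is a nuclear receptor that, once bound by estradiol, attaches to DNA as a dimer. Its best known target is a palindrome called the oestrogen response element, whose arms GGTCA and TGACC stand 3 bases apart, and it can also reach DNA through other factors. In breast cancer cells most of its sites are known to lie away from gene starts, in enhancers. Upstream of CHPT1 lies MYBPC1, which encodes a myosin-binding protein of slow skeletal muscle. Downstream lies GNPTAB, which encodes subunits of the enzyme that begins the mannose 6-phosphate tag of lysosomal proteins.

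The promoter sequence of CHPT1 is shown because the highest of the 3 peaks covers the gene's start. It is the RefSeq window from 250 bases before to 50 bases after the annotated start, chr12:101697390-101697689 on the plus strand of GRCh38, a different build from that of the peaks. Capitals mark the only match to either arm of the element, GGTCA or TGACC, on either strand.
CHPT1: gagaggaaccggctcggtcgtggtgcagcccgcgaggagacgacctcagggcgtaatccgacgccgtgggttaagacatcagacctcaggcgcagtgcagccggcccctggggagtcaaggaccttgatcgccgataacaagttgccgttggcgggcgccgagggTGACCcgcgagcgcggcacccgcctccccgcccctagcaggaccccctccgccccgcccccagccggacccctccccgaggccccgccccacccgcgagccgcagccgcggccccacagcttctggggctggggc

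ERα occupancy at this locus was listed in a single stretch at the start of CHPT1. The 3 peaks lay side by side and filled 96.3% of 2198 bp, and no other peak had its centre in the 400 kb. The middle peak, called the CHPT1 start peak, ran from 102090905 to 102091821, was 917 bp wide and had a score of 3214.31. The score is the authors' own value for each peak, on a scale that is not stated, and is used here only to order or group peaks within this list. The start peak ranked 4 of 12688 by score, or 135 on average if the 269 peaks at 3100 or above are tied. It began 495 bp upstream of the gene's start and ended 421 bp downstream of it, with its centre 37 bp upstream. The position of the start is given as near 102091400, so these distances are approximate.

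The flanking peaks stood far lower in the order of scores, at ranks 9462 upstream and 5523 downstream. The upstream flank peak ran from 102090531 to 102090860, that is from 869 to 540 bp before the start of CHPT1, with a width of 330 bp and a score of 70.98. It lay 44 bp from the start peak. The downstream flank peak ran from 102091860 to 102092728, from 460 to 1328 bp past the start and so on the transcribed side, with a width of 869 bp and a score of 157.78. It lay 38 bp from the start peak. Whether its bases are exonic or intronic was not assigned, since no hg19 annotation was used here. The upstream flank peak scored above 25.4% of all peaks and the downstream one above 56.5%. Along the direction of transcription the lowest of the 3 scores therefore came first, the highest second and the intermediate one last.

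**Figure D1:**
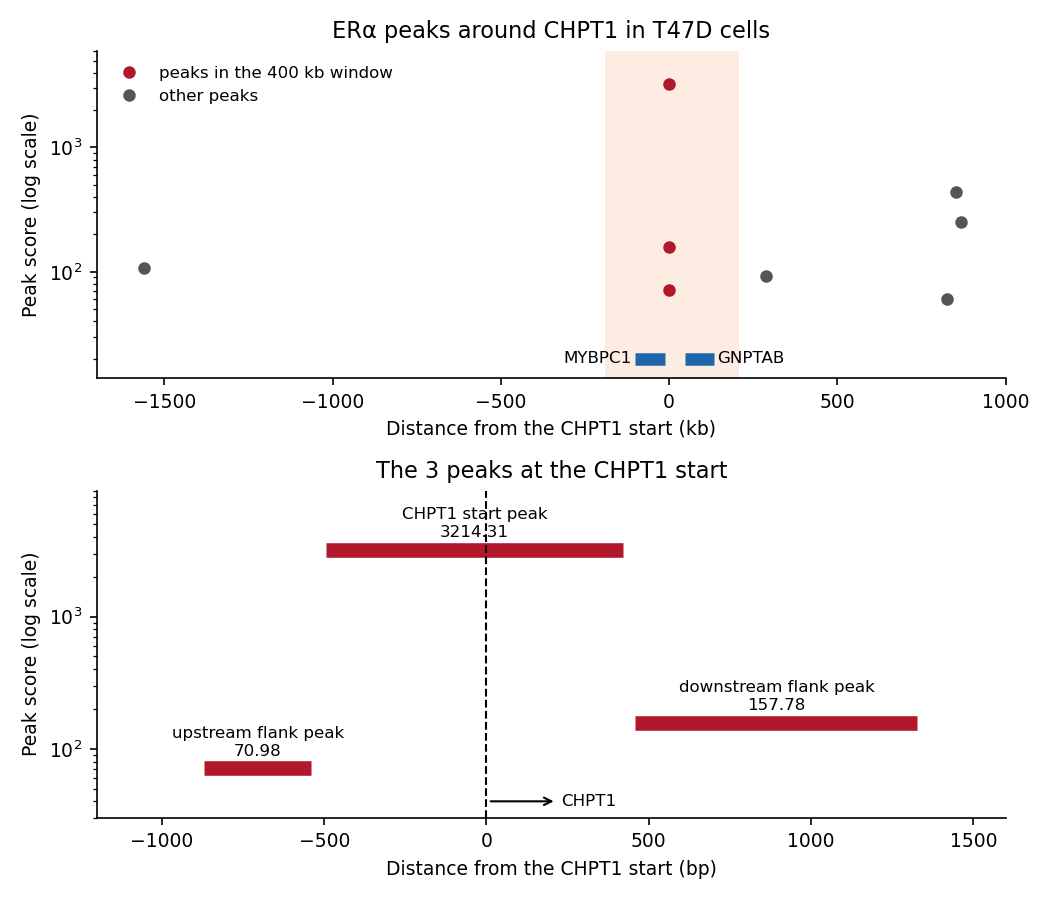
ERα peaks around CHPT1: the upper panel plots the score of each peak (log scale) against distance from the CHPT1 start in kb, with the 400 kb window shaded and MYBPC1 and GNPTAB as blue bars, and the lower panel draws each of the 3 peaks as a line over its extent in bp at the height of its score. The 3 peaks of the window, at 70.98, 3214.31 and 157.78, sit together at the start, and the next peaks are 1.56 Mb upstream and 285.6 kb downstream.

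Of the 3 peaks, 1 scored 3100 or more, a class called strong here that holds 2.12% of all peaks. Exactly 235 peaks share the score 3100 and 34 exceed it, so the top of the scale is not a plain ranking. The list does not show whether a peak at the shared 3100 is weaker or stronger than one with a higher score. With all 269 strong peaks tied the start peak would have a mean rank of 135. If the 235 peaks at 3100 were the stronger ones, its rank would be later than 135. The peaks ranked next to the start peak were 1 on chromosome 14 just above it, with a score of 3219.84, and 1 on chromosome 20 just below it, with a score of 3213.57. On chromosome 12 the start peak had the highest listed score of 546 peaks, followed by 1 at 3182.77. Of the 11 strong peaks on that chromosome, 4 exceeded 3100 and the rest shared it. The start peak is thus not shown to be the strongest site on chromosome 12.

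Over all peaks, the width of the start peak stood out less than its score, which placed it in the strong class, 2.12% of the list. The start peak was wider than 92.2% of all peaks, which had a median width of 505 bp, and ranked 990 by width. Among the 269 strong peaks, whose median width was 1030 bp, 65.8% were at least as wide. The downstream flank peak was wide for its score. The 1670 peaks with scores from 126.2 to 197.2 had a median width of 510 bp, and 5.15% of them reached its 869 bp. Among the 88 lower-scoring peaks within 500 bp of a strong one, the median width was 584.5 bp. Of these, 18 were wider than the downstream flank peak, so its width was less unusual among such flanks. The upstream flank peak was narrow: of 3198 peaks with scores from 56.8 to 88.7, with a median width of 420 bp, 14.9% were as narrow or narrower.

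**Figure D2:**
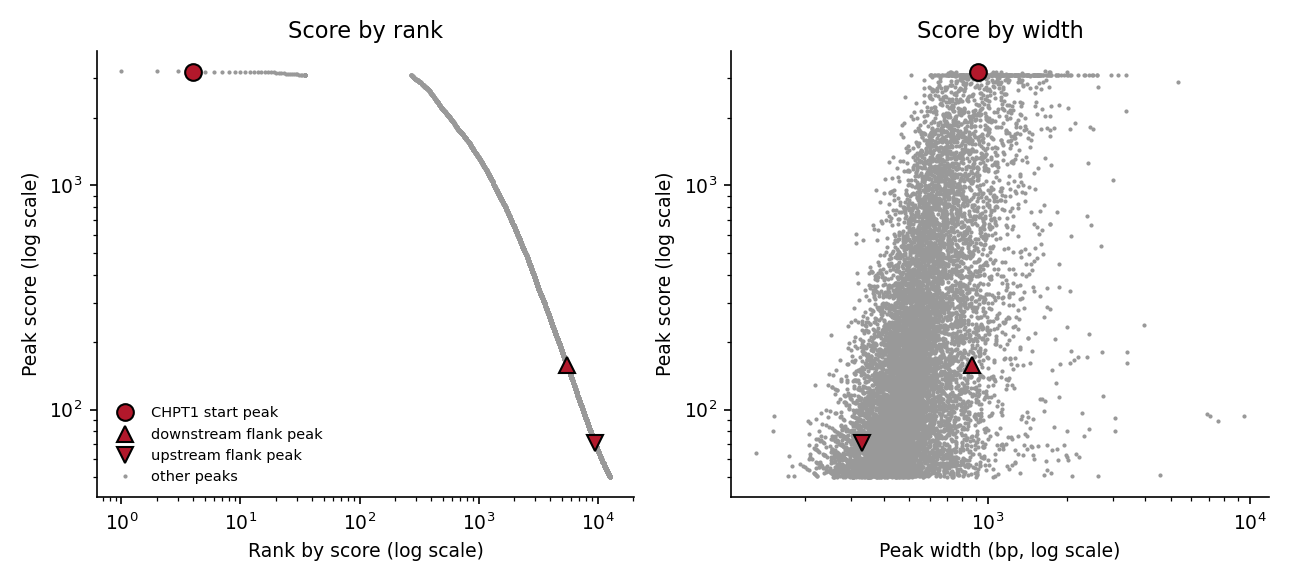
Score of every peak (log scale) against its rank by score (left, log scale) and its width in bp (right, log scale), with the 3 CHPT1 peaks in red and all other peaks in grey. The start peak lies at rank 4 with a width of 917 bp, the downstream flank peak is at the wide edge for its score of 157.78, and the empty stretch of ranks comes from the 235 peaks that share the score 3100.

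Neighbouring peaks as close as these were uncommon in the list. Of 12655 pairs of neighbouring peaks, 104, or 0.822%, lay 44 bp or less apart, and both gaps at CHPT1 were among them. When peaks with edges within 500 bp were joined, the list held 12006 regions, of which 11390 had 1 peak, 558 had 2 and 53 had 3, the CHPT1 region included. Regions of 3 peaks had a median length of 2.52 kb, against 2.20 kb at CHPT1. In 17 of the 53 the highest score was in the middle, as at CHPT1. Whether the 3 rows are separate sites or 1 enriched stretch listed in pieces was not tested.

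Flanking peaks on both sides were present for 6 of the 269 strong peaks, or 2.23% (Wilson 95% interval 1.03 to 4.78%), the CHPT1 start peak being 1 of them. A further 78 had a peak within 500 bp on 1 side and 185 had none. Among the 12378 lower-scoring peaks of chromosomes 1 to 22 and X, 0.485% (0.377 to 0.623%) had both flanks. The 88 lower-scoring peaks within 500 bp of a strong one had a median score of 188.52 (quartiles 85.57 and 873.03). Of these 88, 16 scored lower than the upstream flank peak of CHPT1 and 40 scored lower than the downstream one. The intervals cover counting error only.

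The surroundings of the CHPT1 start were nearly free of listed ERα peaks. No peak overlapped MYBPC1, given as 101988709 to 102079796, whose end lay 10.7 kb before the upstream flank peak. No peak overlapped GNPTAB, given as 102139275 to 102224716, and the 46.5 kb between the downstream flank peak and that gene held none either. In the RefSeq order of protein-coding genes, SYCP3, which encodes a protein of the meiotic chromosome axis, is the gene between CHPT1 and GNPTAB. The rest of CHPT1 and the whole of SYCP3 thus had no listed peak, as far as the gene order of GRCh38 holds in hg19. The nearest peak upstream ran from 100532100 to 100532643 with a score of 106.78, at a distance of 1.56 Mb. The nearest peak downstream ran from 102378320 to 102378661 with a score of 92.93, at a distance of 285.6 kb. Both scored below the list's median of 128.26. A place without a listed peak is not shown to lack binding, because the depth and the threshold behind the list are unknown.

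Such isolation was rare for a peak of this score. With peaks joined within 500 bp, the 268 regions that held a strong peak had a median distance of 3.55 kb to the nearest other region (quartiles 1.40 and 13.4 kb), against 285.6 kb for CHPT1. CHPT1 ranked second of the 268, after a region on chromosome 10 from 128606219 to 128607567 at 373.6 kb. A distance of over 200 kb was found for 3 of the 268, or 1.12% (Wilson 95% interval 0.381 to 3.24%), the last being a region on chromosome 6 from 83277291 to 83280699 at 201.6 kb. Over all 11965 regions the median distance was 21.7 kb, and 8.04% were at least as far from their nearest neighbour as CHPT1. The rank rests on the joining distance: it was 6 of 257 when peaks within 10 kb were joined and 20 of 241 when peaks within 50 kb were joined. The peak-free stretch upstream was long for the list as a whole too, as 326 of 11942 gaps between regions, or 2.73%, were as long or longer.

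**Figure D3:**
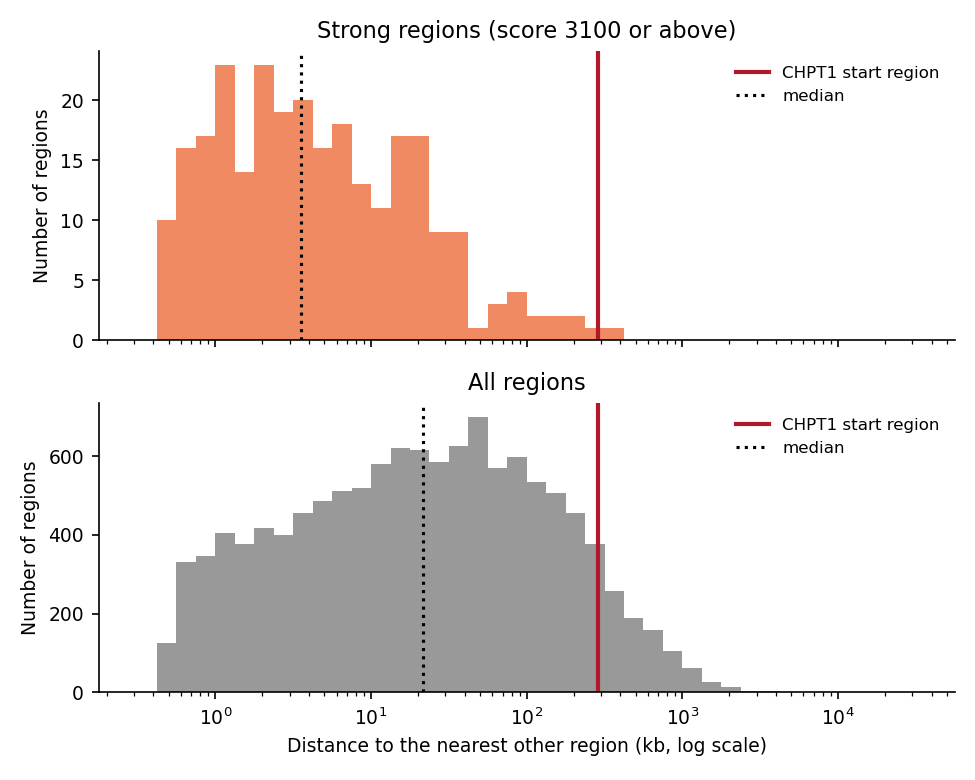
Distance from each region (peaks joined within 500 bp) to the nearest other region in kb on a log scale, with the number of regions on the vertical axis, for the regions with a strong peak above and all regions below. The red line marks the CHPT1 region at 285.6 kb, and the dotted lines mark the medians, 3.55 kb for the strong regions and 21.7 kb for all.

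Counted outward from the centre of the start peak, the other peaks were near or far and seldom between. Within 2 kb there were 2, the flanks, against a median of 0 for the 269 strong peaks and 0 for all peaks. Within 10 kb there were still 2, which was also the median of the strong peaks. The number stayed at 2 out to 200 kb, where strong peaks had a median of 8 (quartiles 5 and 12) and all peaks 4. Within 500 kb there were 3, against medians of 13 for strong and 8 for all peaks, and 4.83% of strong peaks had as few. Within 1 Mb there were 6, against 20 and 14, and 5.58% of strong peaks had as few.

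**Figure D4:**
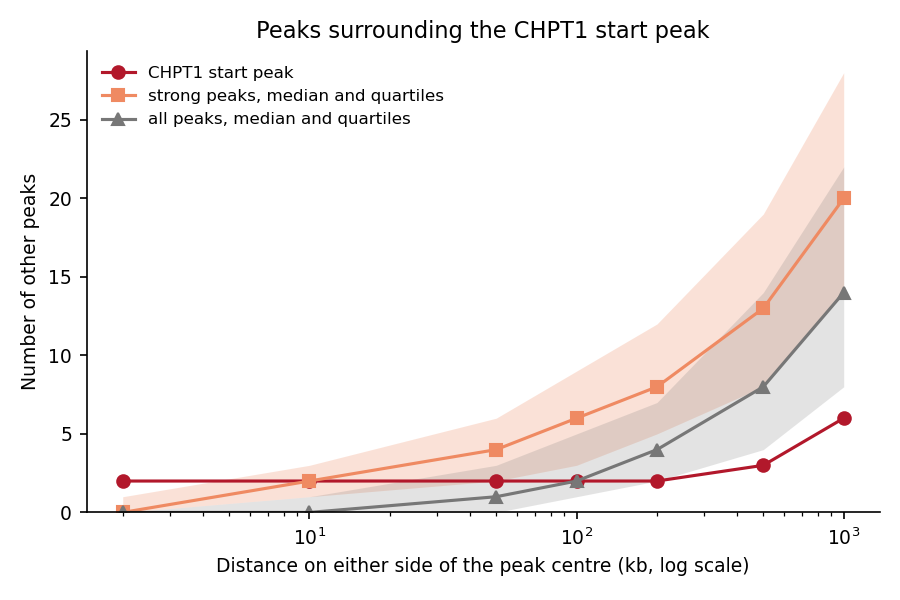
Number of other peak centres within a given distance on either side (kb, log scale) for the CHPT1 start peak in red, the 269 strong peaks in orange and all peaks on chromosomes 1 to 22 and X in grey, where symbols are medians and bands run between the quartiles. CHPT1 is above both medians at 2 kb and below both from 200 kb outward, with 6 peaks within 1 Mb against medians of 20 and 14.

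The number of peaks in the window was unremarkable beside the score of its highest. When chromosomes 1 to 22 and X were divided into 7565 windows of 400 kb, 22.2% held 3 or more peaks and 46.5% held none. The exact Poisson 95% interval of the density at CHPT1, 7.50 peaks per Mb, ran from 1.55 to 21.9, and the mean over these chromosomes was 4.17. Its ratio to that mean was 1.8 (0.371 to 5.26), so it could not be told from the mean by counting error alone. The interval treats peaks as independent, which these adjoining 3 are not shown to be, and does not measure the spread between windows. Joined within 500 bp, the 3 peaks became 1 region and the ratio was 0.634. The windows on either side held 0 peaks upstream and 1 downstream. Of the 230 windows with a strong peak, whose median count was 8, 27 held 3 peaks or fewer, or 11.7% (Wilson 95% interval 8.19 to 16.5%).

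The promoter window of CHPT1 held no full oestrogen response element with every set letter. If the RefSeq start is the start given in hg19, the window printed above, from 250 bases before to 50 after it, lies wholly within the start peak and covers 300 of its 917 bp. The remaining bases of the peak and of both flanks were not searched. The full element, GGTCA and TGACC with any 3 bases between, reads the same on both strands and occurred in 20 of 35116 RefSeq promoter windows of this length, or 0.057%. The CHPT1 window held 1 arm, the TGACC marked in capitals, starting 85 bases before the annotated start. Either arm, in a search that counts the arms of full elements too, occurred in 37.4% of all windows. The closest match to the whole element had 7 of its 10 set letters, ended in that same TGACC and started 93 bases before the start, and 59.8% of windows had a match as good or better. These letters describe the window and show neither a bound site nor the lack of one.

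The CHPT1 promoter was rich in G and C. Its GC content was 73.7%, against a median of 58.7% over the 35116 windows, and it held 34 CpG dinucleotides against a median of 14. The GC box, GGGCGG or CCGCCC on the other strand, a motif bound by Sp1 and related factors and chosen for the search after the sequence was seen, occurred 4 times. Of all windows, 45.0% held at least 1 and 9.06% held 4 or more, shares not adjusted for the high GC content of the CHPT1 window. All 4 copies read CCGCCC on the printed strand and began 58, 37, 32 and 2 bases before the annotated start. The copies at 37 and 32 share 1 base. A search for the AP-1 site, TGANTCA with any base at N, found 0 in the CHPT1 window, and 7.71% of all windows held at least 1. The window of MYBPC1, which no peak overlapped in hg19, had a closest match of 8 of the 10 letters of the element and held 0 arms with every letter. Among the other protein-coding genes near CHPT1 in the RefSeq order, the window of ARL1 had 1 arm and a closest match of 7 letters, the same as CHPT1, and that of DRAM1 had 1 arm and a closest match of 6. The windows of SPIC, SYCP3, GNPTAB, WASHC3 and NUP37 each had a closest match of 6 letters and 0 arms. The arm in the CHPT1 window was thus not particular to it among these neighbours.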

How the data were processed

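ChIP DNA and input DNA from T47D cells were sequenced, 1 library each. The authors deposited 1 list of peaks with a score for each, and the peak names carry the MACS prefix, per the file. Per the submitters' processing notes, CASAVA 1.8, Bowtie 0.12.9, HOMER and the hg19 build were used, in roles not stated. The caller version, threshold and duplicate handling were details not given in the sources used here. Starts are counted from 0 in the file, and 1 was added for printing. No peak ended past an hg19 chromosome end (lengths from GenomeInfoDb 1.38.1). Gene positions in hg19 came with the definition of the window. RefSeq promoter windows and gene order follow GRCh38, were matched by symbol, and were not converted. All 3 peaks of the window are named, and elsewhere the nearest and the adjacently ranked peaks, with the most isolated strong regions chosen after their values were seen. The window and measures were chosen with earlier results of these data known. Region, gap and motif counts were checked on simulated data. Alternatives were score limits, joining distances, overlap, window width and ranking. Shares have Wilson 95% intervals, and the density an exact Poisson interval. Analyses used Python 3.11.15, pandas 2.3.3, NumPy 2.4.6, SciPy 1.17.1 and matplotlib 3.10.9.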

Additional observations from a re-analysis of the deposited data

How the results depend on the processing

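The count of 3 peaks in the window was the same with any base inside the window and 2 among peaks at or above the median score. It was 1 among the 3172 highest-scoring peaks, 1 after joining within 500 bp, 1 after joining within 10 kb, and 1.6 per 400 kb in a window of 1 Mb, which held 4 peaks. The density ratio of 1.8 lay between 0.634 and 2.40 under its 5 alternatives, within its counting interval each time, but below the mean after both joinings (0.634 and 0.817). The rank of the start peak was 4 by score, 990 by width, 135 with the 269 strong peaks tied and 1 by score on chromosome 12. The ranks of 4 and 1 rest on the order of scores within the strong class, which is not a plain ranking. Were the peaks at the shared 3100 placed above the start peak, its rank would be later than 135 in the list and later than 1 on chromosome 12. The isolation rank, with alternatives chosen after seeing the data, was 2 when peaks within 500 bp, 1 kb or 2 kb were joined, 3 within 5 kb, 6 within 10 kb and 20 within 50 kb. No paired analysis was possible because 1 peak list of the ChIP over its input was analysed. Unknown depth limits which weak sites could be listed.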
